A study of Homo sapiens with 18 samples.

Results

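Frame-shifting cassette exons are internal exons that can be skipped and whose length is not a multiple of 3, so that their presence or absence moves the reading frame of everything downstream. They were collected from a table of intron usage in SHEP.tet21n cells as trios of 3 annotated introns in 1 cluster, namely the introns on both sides of an exon and the longer intron that skips it, with an exon of 31 to 300 nt in a protein-coding gene and a length not divisible by 3. The rule gave 9967 trios, which hold 9051 different exons of 5097 genes, out of 31858 trios of annotated introns in all. Another 7415 trios met the same rule with a length divisible by 3 and are called frame-preserving here. Each trio was described by its skipping share, the usage of the skipping intron divided by the sum of that usage and the mean usage of the flanking introns, in percent.

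SHEP.tet21n is a human neuroblastoma line in which doxycycline (Dox) represses a MYCN transgene, and all libraries came from this 1 line. The 6 groups of 3 libraries were MYCN-/SNRPD3+ (wildtype; 2 µg/mL Dox, control siRNA), MYCN-/SNRPD3- #1 and #2 (2 µg/mL Dox, SNRPD3 siRNA #1 or #2), MYCN+/SNRPD3+ (vehicle, control siRNA) and MYCN+/SNRPD3- #1 and #2 (vehicle, SNRPD3 siRNA #1 or #2). The study compared them to learn how MYCN and SNRPD3, separately and together, alter splicing. Every library without MYCN had Dox and every library with MYCN had none, so differences by MYCN and by Dox cannot be told apart. The files hold intron usage only, so neither the MYCN and SNRPD3 levels nor the markers of the cells were checked here.

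The spliceosome removes introns by pairing the splice sites that flank each exon, and an exon whose sites are poorly recognised can be passed over. SNRPD3 encodes an Sm protein, part of the ring at the core of the small nuclear ribonucleoproteins that recognise splice sites. When an exon with a length that is not a multiple of 3 is skipped from, or added to, a coding sequence, translation usually meets a stop codon soon afterwards. If that stop lies well upstream of the last exon junction, the transcript is a typical target of nonsense-mediated decay, and exons that bring such a stop when they are included are known as poison exons.

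The exons below are examples of those described later. Several of their calls did not hold in other fits, and BIRC5 was not called. In the first set the canonical transcript contains the exon, and the exon is in capitals with 20 intronic bases on each side in lower case. All coordinates are hg38 and the sequences are given 5′ to 3′ on the strand of the gene.
MDM4 exon, 68 nt, chr1:204537430-204537497, plus strand: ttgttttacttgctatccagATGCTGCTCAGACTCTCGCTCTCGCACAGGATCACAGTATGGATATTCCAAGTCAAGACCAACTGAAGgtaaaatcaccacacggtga
CHEK1 exon, 224 nt, chr11:125627607-125627830, plus strand: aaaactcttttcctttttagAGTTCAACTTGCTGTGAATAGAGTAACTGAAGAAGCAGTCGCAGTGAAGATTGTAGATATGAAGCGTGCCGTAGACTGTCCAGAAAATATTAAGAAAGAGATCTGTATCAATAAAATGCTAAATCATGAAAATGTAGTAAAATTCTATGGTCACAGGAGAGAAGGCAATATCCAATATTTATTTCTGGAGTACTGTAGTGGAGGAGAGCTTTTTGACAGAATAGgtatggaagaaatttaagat
HDAC3 exon, 143 nt, chr5:141634811-141634953, minus strand: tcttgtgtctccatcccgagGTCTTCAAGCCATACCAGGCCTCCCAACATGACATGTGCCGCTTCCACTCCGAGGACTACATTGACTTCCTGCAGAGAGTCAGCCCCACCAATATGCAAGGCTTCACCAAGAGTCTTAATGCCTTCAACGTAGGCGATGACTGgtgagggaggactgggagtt
PTBP1 exon, 31 nt, chr19:799413-799443, plus strand: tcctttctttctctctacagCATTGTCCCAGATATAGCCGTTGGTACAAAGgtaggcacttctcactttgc
METTL26 exon, 163 nt, chr16:635612-635774, minus strand: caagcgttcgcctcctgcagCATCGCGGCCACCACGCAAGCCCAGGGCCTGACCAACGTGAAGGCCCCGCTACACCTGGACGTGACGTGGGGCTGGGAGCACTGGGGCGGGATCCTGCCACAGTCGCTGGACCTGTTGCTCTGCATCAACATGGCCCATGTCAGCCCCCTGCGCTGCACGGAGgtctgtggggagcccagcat
NAGK exon, 142 nt, chr2:71071686-71071827, plus strand: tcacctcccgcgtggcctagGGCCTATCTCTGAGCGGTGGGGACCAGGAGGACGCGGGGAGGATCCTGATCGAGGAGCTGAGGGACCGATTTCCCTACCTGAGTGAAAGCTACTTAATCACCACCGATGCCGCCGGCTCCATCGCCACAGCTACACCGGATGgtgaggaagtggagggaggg
BIRC5 exon, 118 nt, chr17:78216664-78216781, plus strand: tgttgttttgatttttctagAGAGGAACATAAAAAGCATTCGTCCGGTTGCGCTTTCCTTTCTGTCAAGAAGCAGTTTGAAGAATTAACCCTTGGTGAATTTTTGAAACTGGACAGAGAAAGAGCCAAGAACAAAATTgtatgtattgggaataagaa
MDM4, CHEK1, HDAC3 and PTBP1 were called in MYCN+/SNRPD3- against wildtype, METTL26 was the 1 exon called for MYCN alone, NAGK was called for the knockdown with MYCN, and BIRC5 is shown because the study singles it out. Without its 68 nt exon, exon 6 of the canonical transcript, MDM4 of 490 amino acids would keep 114 and gain 26 from the new frame before a stop. CHEK1 without exon 3 would keep 21 of 476 amino acids and gain 7, and HDAC3 without exon 3 would keep 46 of 428 and gain 7. PTBP1 without exon 2 would keep 2 of 557 and gain 18, METTL26 without exon 2 would keep 65 of 204 and gain 38, and NAGK without exon 4 would keep 71 of 344 and gain 30. BIRC5 without exon 3 would keep 73 of its 142 amino acids and gain 64 others, a protein of 137.

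In the second set the canonical transcript skips the exon, and the capitals mark the first stop codon met in frame when the exon is added to that transcript.
RBM39 exon, 73 nt, chr20:35740525-35740597, minus strand: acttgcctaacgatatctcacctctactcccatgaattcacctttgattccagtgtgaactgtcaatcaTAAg
PRPF39 exon, 163 nt, chr14:45096596-45096758, plus strand: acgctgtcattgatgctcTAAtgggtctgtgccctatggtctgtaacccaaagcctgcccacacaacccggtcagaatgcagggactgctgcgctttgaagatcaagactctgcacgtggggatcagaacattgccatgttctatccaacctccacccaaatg
LUC7L3 exon, 193 nt, chr17:50737287-50737479, plus strand: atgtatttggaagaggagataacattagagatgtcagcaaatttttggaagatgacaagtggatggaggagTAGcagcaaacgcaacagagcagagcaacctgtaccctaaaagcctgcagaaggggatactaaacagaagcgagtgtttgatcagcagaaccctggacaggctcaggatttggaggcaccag
SF3B1 exon, 56 nt, chr2:197418896-197418951, minus strand: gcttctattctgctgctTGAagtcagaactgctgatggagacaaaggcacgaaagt
With the added exon the protein would be 40 amino acids long in place of 530 for RBM39, 156 in place of 669 for PRPF39, 79 in place of 432 for LUC7L3 and 144 in place of 1304 for SF3B1. All 4 genes encode splicing factors.

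Not every exon of the set sits inside a reading frame. Of the 9967 trios, 4274 (42.9%) had the exon wholly inside the coding sequence of a canonical or protein-coding transcript, 1533 (15.4%) lay in a 5′ UTR, 8 in a 3′ UTR and 815 (8.18%) held a start or stop codon. A further 1874 (18.8%) were joined to both flanks only in coding transcripts of other types, such as annotated decay targets, and 1463 (14.7%) in no coding transcript. For exons outside a reading frame, the term frame-shifting describes the length alone. The canonical transcript contained the exon in 4098 trios (41.1%), skipped it in 3015 (30.2%) and did neither in 2854 (28.6%). In 651 trios no single transcript joined all parts. Lengths had a median of 113 nt, and 5002 left a remainder of 1 and 4965 a remainder of 2 after division by 3.

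What skipping does to the protein was computed for 3530 exons of the set that a canonical transcript with a complete reading frame contains. In 2759 (78.2%) the first stop after skipping fell more than 50 nt before the last exon junction, the customary distance for nonsense-mediated decay. In 766 (21.7%) it fell later, and in 5 none was found. The new frame ran for a median of 10 amino acids in the first class and 19 in the second. For 2283 exons that the canonical transcript skips, adding the exon put the stop over 50 nt before the last junction in 1990 (87.2%), and in 1671 (73.2%) the stop began within or ahead of the added exon.

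Of the 9967 trios, 8902 had a mean skipping share from 1% to 99% over all libraries and were tested. The other 1065 were left out, 642 below and 423 above those limits. Wildtype shares depended on the annotation. The median was 4.22% where the canonical transcript holds the exon (3537 tested), 93.3% where it skips it (2596) and 15.05% where it does neither (2769). In the 1451 tested trios whose skipping junction occurs only in transcripts annotated as decay targets the median was 3.43%, and in the 1430 whose exon occurs only in such transcripts it was 87.1%, so both kinds of decay-annotated form were the minor form in wildtype cells.

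The third library of both MYCN+/SNRPD3- groups stood apart. The mean skipping share over the 8902 tested trios was 42.8% in the third library of MYCN+/SNRPD3- #1 against 40.1% and 39.97% in the others, and 41.4% in the third library of #2 against 40.01% and 39.4%. The 12 libraries of the other groups lay between 37.8% and 39.6%. Beside each named call for both changes that is lost without these 2 libraries, the adjusted p without them is given, and of 48 such calls 12 held and 36 were lost. Read depth is unknown, since usage is deposited as fractions, and low shares may rest on few or no skipping reads.

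Over the whole set, skipping was lowest in wildtype cells and highest where MYCN was expressed and SNRPD3 knocked down. The mean skipping share was 38.2% ± 0.36 (SD, n = 3) in wildtype cells and 38.8% ± 0.42 with MYCN alone. It was 39.5% ± 0.23 and 39.2% ± 0.17 with siRNA #1 and #2 without MYCN, and 41.0% ± 1.6 and 40.3% ± 1.0 with siRNA #1 and #2 in cells with MYCN. No wildtype library reached the lowest library of either MYCN-/SNRPD3- or MYCN+/SNRPD3- group, while the wildtype and MYCN+/SNRPD3+ libraries overlapped. The frame-preserving exons showed the same order, from 37.4% ± 0.13 in wildtype to 40.4% ± 1.5 and 39.8% ± 0.98 in the MYCN+/SNRPD3- groups. The mean difference between the 6 MYCN+/SNRPD3- and the 3 wildtype libraries was 2.42 points, and 1.68 points without the third libraries. These means are descriptions and were not tested.

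**Figure D1:**
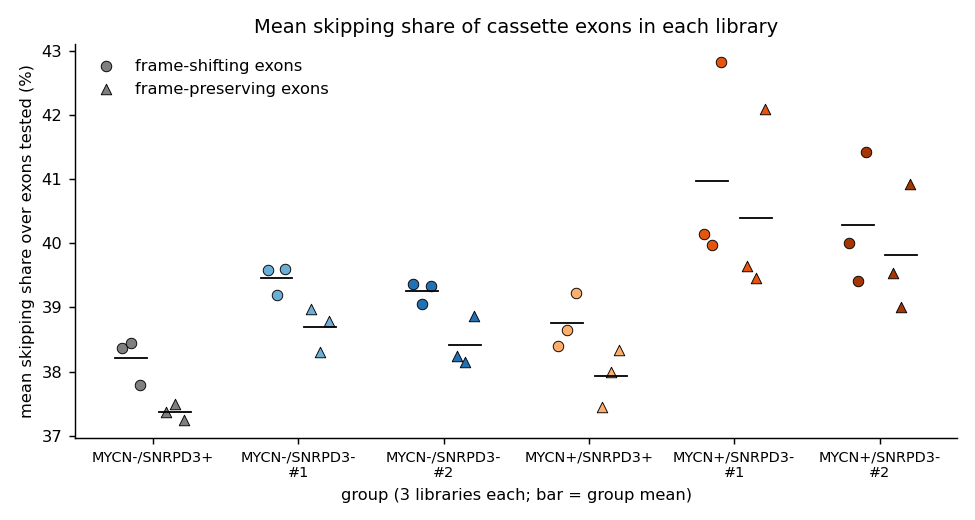
Mean skipping share (percent, y axis) over the tested cassette exons in each of the 18 libraries, by group (x axis); circles are the 8902 frame-shifting trios, triangles the 6702 frame-preserving ones, and bars the means of 3 libraries. The wildtype circles lie between 37.8% and 38.5%, and the third libraries of the MYCN+/SNRPD3- groups reach 42.8% and 41.4%.

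Each comparison was tested trio by trio with limma over all 18694 trios that passed the filter, on the log2 odds of the share, and called at a Benjamini-Hochberg adjusted p under 0.05. MYCN alone (MYCN+/SNRPD3+ against wildtype) gave 1 call among the 8902 frame-shifting trios, where 0.0321% of all trios were called. The knockdown without MYCN gave 0 calls, with 0% of all trios called. The knockdown with MYCN (both siRNAs against MYCN+/SNRPD3+) gave 5 calls, all with more skipping, against 0.0374% of all trios. Both changes together (both MYCN+/SNRPD3- groups against wildtype) gave 496 calls in 409 genes, 5.57% of the frame-shifting trios, against 5.71% of all trios.

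At an unadjusted p under 0.05, limma counted 664 frame-shifting trios (7.46%) for MYCN alone and 557 (6.26%) for the knockdown without MYCN. It counted 1134 (12.7%) for the knockdown with MYCN and 1935 (21.7%) for both changes. The shares over all trios were 8.18%, 6.45%, 13.1% and 22.4% in the same order. The knockdown effect averaged over both MYCN states and the interaction, the knockdown effect with MYCN minus that without, each gave 0 calls and 0% of all trios by limma. At an unadjusted p under 0.05 they had 1324 (14.9%) and 349 (3.92%) frame-shifting trios, against 15.3% and 4.11% of all trios. With the alternatives, the averaged effect gave up to 51 calls and the interaction up to 2. A larger knockdown effect with MYCN than without it was therefore not called for any single exon in the main analysis. The 4 group comparisons share wildtype or MYCN+/SNRPD3+ libraries, so their counts are not independent of each other.

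Exon skipping was the direction of nearly all calls for both changes. Of the 496 called trios, 463 (93.3%) had a higher skipping share in MYCN+/SNRPD3- cells and 33 a lower one, against 5.33% and 0.38% of all trios called higher and lower. Over all tested frame-shifting trios, called or not, 6350 of 8902 (71.3%) had a higher mean share, with a median difference of 1.30 points. The same figures over all 18694 trios were 70.4% and 1.36 points, and over the 6702 frame-preserving trios 73.2% and 1.49 points. The frame-preserving set had 450 calls (6.71%), of which 427 were higher. No test of a difference between the sets was made.

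Median differences were smaller in the other comparisons. The median difference over the frame-shifting trios was 0.23 points for MYCN alone, 0.52 points for the knockdown without MYCN and 1.08 points for the knockdown with MYCN, beside 0.25, 0.56 and 1.15 points over all trios. Higher mean shares were found in 55.6%, 64.4% and 71.5% of the frame-shifting trios in the same order.

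The 463 trios called higher belonged to 379 genes and 450 exons, and 63 of these genes had more than 1 such trio. Their median skipping share was 7.56% in wildtype and 12.1% in MYCN+/SNRPD3+ cells. It was 11.6% and 10.97% in the MYCN-/SNRPD3- groups and 18.9% and 18.2% in the MYCN+/SNRPD3- groups (#1 and #2). Since the calls were made on the wildtype and MYCN+/SNRPD3- libraries, this profile is a description. The difference exceeded 10 points in 193 of them and 20 points in 62, and the largest was 45.7 points. Of the 33 trios called lower, 15 differed by more than 10 points and 6 by more than 20, with a median of -8.78 points, and their largest difference, 63.9 points in size, was the largest of any tested trio. Their median share was 90.1% in wildtype, and 78.4% and 75.7% in the MYCN+/SNRPD3- groups (#1 and #2). For the 463 trios called higher, the median differences from wildtype were 8.87 points with siRNA #1 and 7.74 points with siRNA #2. For the 33 called lower they were -8.76 and -8.80 points.

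Most exons called higher were skipped little in wildtype cells. Of the trios with a wildtype share under 5%, 191 of 2752 were called higher and 1 lower. From 5% to 20% the counts were 117 and 4 of 1822, and from 20% to 80% they were 113 and 8 of 1973. From 80% to 95%, 30 were called higher and 9 lower of 1177, and above 95% 12 and 11 of 1178, so that the directions were about even among the exons already skipped the most. The wildtype libraries set both this grouping and the baseline of the difference, and shares above 95% have little room to rise. The pattern was therefore partly fixed in advance and is a description only. The median difference was largest, at 4.35 points, for wildtype shares from 20% to 80%.

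**Figure D2:**
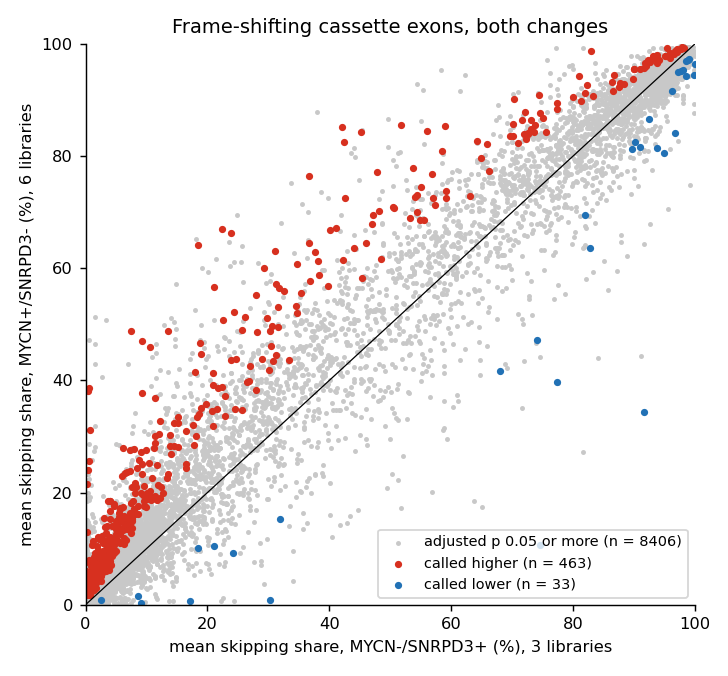
Mean skipping share (percent) of each tested frame-shifting trio in the 3 wildtype libraries (x axis) and the 6 MYCN+/SNRPD3- libraries (y axis), with the line of equality. The 463 trios called higher (red) lie above the line and the 33 called lower (blue) below it, most of the latter at wildtype shares over 80%.

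By annotation, exons that the canonical transcript contains were called in 6.96% of 3537 tested trios (242 higher, 4 lower), and exons that it skips in 3.35% of 2596 (69 higher, 18 lower). Exons inside a coding sequence were called in 6.97% of 3699 trios, 5′ UTR exons in 3.72% of 1478 and start or stop codon exons in 5.44% of 753. Of the 211 called-higher exons with a computable effect, skipping put the stop over 50 nt before the last junction in 151 (71.6%) and later in 60 (28.4%), beside 78.1% and 21.8% of the 2997 such exons tested. Among the 60 called-higher exons that the canonical transcript skips, 52 (86.7%) would bring an early stop of that kind if added, beside 86.6% of 1897 tested. No test of these differences was made.

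Sequence features of the called exons were described with no test. The 450 exons called higher had a median length of 107 nt and a median GC content of 49.5%, beside 115 nt and 48.9% for the 8039 exons tested. Their flanking introns had medians of 1799 nt upstream and 1778 nt downstream, beside 2222 nt and 2131 nt. The 9 bases around the donor site were compared with CAGGTAAGT (3 exonic and 6 intronic letters, on the strand of the gene), and a median of 6 letters matched in both sets. The last exonic base was G in 78.2% of called and 79.9% of tested exons. The median pyrimidine content of the last 20 intronic bases before the exon was 70.0% for called-higher exons and 65.0% for all tested ones. Frame-preserving exons called higher had values near these, with a median length of 99 nt, a GC content of 49.0%, introns of 1993.5 nt and 1933 nt, G as the last base in 76.3% and a pyrimidine content of 70.0%.

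The 5 genes with the largest differences whose libraries did not overlap were SP110, ANKRD10, CD46, SDR39U1 and CLN6. The exons of CD46, SP110 and CLN6 are joined to both flanks in no coding transcript, that of SDR39U1 holds a start or stop codon, and that of ANKRD10 is coding in a transcript other than the canonical one, which skips it. CD46, a membrane cofactor that protects cells from complement, had a 217 nt exon. It was skipped at 35.8%, 47.5% and 43.0% in the wildtype libraries and at 57.3%, 53.8% and 56.1% with MYCN alone. The MYCN-/SNRPD3- libraries gave 54.8%, 53.1% and 63.5% (#1) and 52.3%, 68.1% and 64.8% (#2). The MYCN+/SNRPD3- libraries gave 80.5%, 89.5% and 90.4% (#1) and 75.1%, 84.3% and 91.0% (#2), all above every other library. The difference from wildtype was 43.0 points (log2 odds 2.99, SE 0.35, limma adjusted p = 0.00314).

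ANKRD10, which encodes an ankyrin repeat protein, gave 26.2%, 22.7% and 18.5% in wildtype and 34%, 38.1% and 47.2% with MYCN alone at its 94 nt exon. The MYCN-/SNRPD3- libraries gave 46.7%, 36.9% and 33.1% (#1) and 52.3%, 46.4% and 48.2% (#2). The MYCN+/SNRPD3- libraries gave 57.2%, 55.9% and 85.4% (#1) and 69.1%, 54.9% and 80.1% (#2), above all the others. The rise of 44.6 points (limma, adjusted p = 0.00656) held without the third libraries (adjusted p = 0.00965). SDR39U1, a short-chain dehydrogenase family member, rose by 42.5 points at an 83 nt exon (limma, adjusted p = 0.00369), from 18.9% to 28.1% over the wildtype libraries to 57.6% to 77.2% over the MYCN+/SNRPD3- ones. CD46, ANKRD10 and SDR39U1 stayed called whichever library was left out. With only the wildtype and MYCN+/SNRPD3- libraries in the fit, SDR39U1 was called (limma adjusted p = 0.0473), while CD46 (0.0513) and ANKRD10 (0.0809) were not.

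SP110, a nuclear body protein induced by interferon, and CLN6, a membrane protein of the endoplasmic reticulum, had wide spreads within groups. The SP110 exon of 289 nt gave 30.6%, 0.866% and 23.7% in wildtype and 37.5% to 81.3% over the MYCN+/SNRPD3- libraries (adjusted p = 0.0314, limma), and the MYCN+/SNRPD3+ libraries were as high, at 54.2% to 79.9%. The CLN6 exon of 215 nt gave 18.2%, 1.57% and 2.82% in wildtype and 42.3% to 53.1% over the MYCN+/SNRPD3- libraries (adjusted p = 0.0289, limma), beside 46.2%, 47.9% and 49.96% with MYCN alone. Both lost the call in limma without the third MYCN+/SNRPD3- libraries (adjusted p = 0.0866 for SP110 and 0.0931 for CLN6), without wildtype replicate 2 (0.122 and 0.126) or replicate 3 (0.0587 and 0.106), and without MYCN+/SNRPD3- #2 replicate 3 (0.0649 and 0.055). SP110 also lost it without MYCN+/SNRPD3- #2 replicate 1 (0.0561) and CLN6 without #1 replicate 3 (0.0554).

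MDM4, an inhibitor of p53, showed the largest difference among the called exons of known switch genes. Its exon 6, printed above, was skipped at 30.9%, 27.6% and 36.2% in wildtype and 32.8%, 37.4% and 31.2% with MYCN alone. The knockdown libraries without MYCN gave 47.2%, 41.6% and 52.2% (#1) and 43.5%, 46.7% and 39.1% (#2), and those with MYCN 52.2%, 51.3% and 67.2% (#1) and 43.1%, 48.6% and 56.7% (#2). All 12 knockdown libraries were above all 3 wildtype libraries. The difference between MYCN+/SNRPD3- and wildtype was 21.6 points (log2 odds 1.29, SE 0.26, limma adjusted p = 0.0168), while the knockdown without MYCN, at 13.5 points, did not pass (adjusted p = 0.59). The call for both changes was lost without wildtype replicate 1 (adjusted p = 0.0571) or replicate 2 (0.0709) and kept without the third libraries (0.0443).

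CHEK1, a kinase of the DNA damage checkpoint, was skipped at exon 3 at 21.5%, 25.3% and 17.8% in wildtype and 25.5%, 29.4% and 29.7% with MYCN alone. The MYCN-/SNRPD3- libraries ranged from 17.5% to 30.97% and overlapped the wildtype libraries. The MYCN+/SNRPD3- libraries gave 32.0%, 34.6% and 40.7% (#1) and 30.3%, 33.7% and 38% (#2), all above wildtype. The difference was 13.4 points (log2 odds 0.94, SE 0.22, limma adjusted p = 0.026), and adjusted p was 0.0944 without the third libraries. Leaving out any 1 wildtype library, or the third library of either MYCN+/SNRPD3- group, also ended the call, with adjusted p from 0.0501 to 0.111.

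HDAC3, the catalytic subunit of a corepressor complex, had small but tight values at exon 3. Skipping was 4.84%, 5.71% and 5.75% in wildtype, 6.87%, 8.23% and 7.44% with MYCN alone and 6.76% to 9.70% in the MYCN-/SNRPD3- libraries. It was 9.97%, 9.56% and 11.3% (#1) and 11.8%, 11.4% and 13.6% (#2) in the MYCN+/SNRPD3- libraries. The wildtype libraries were the lowest of all 18. The difference of 5.83 points (log2 odds 1.02, SE 0.16, limma adjusted p = 0.00604) stayed called whichever library was left out, and was lost with only the compared groups in the fit (0.0727).

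**Figure D3:**
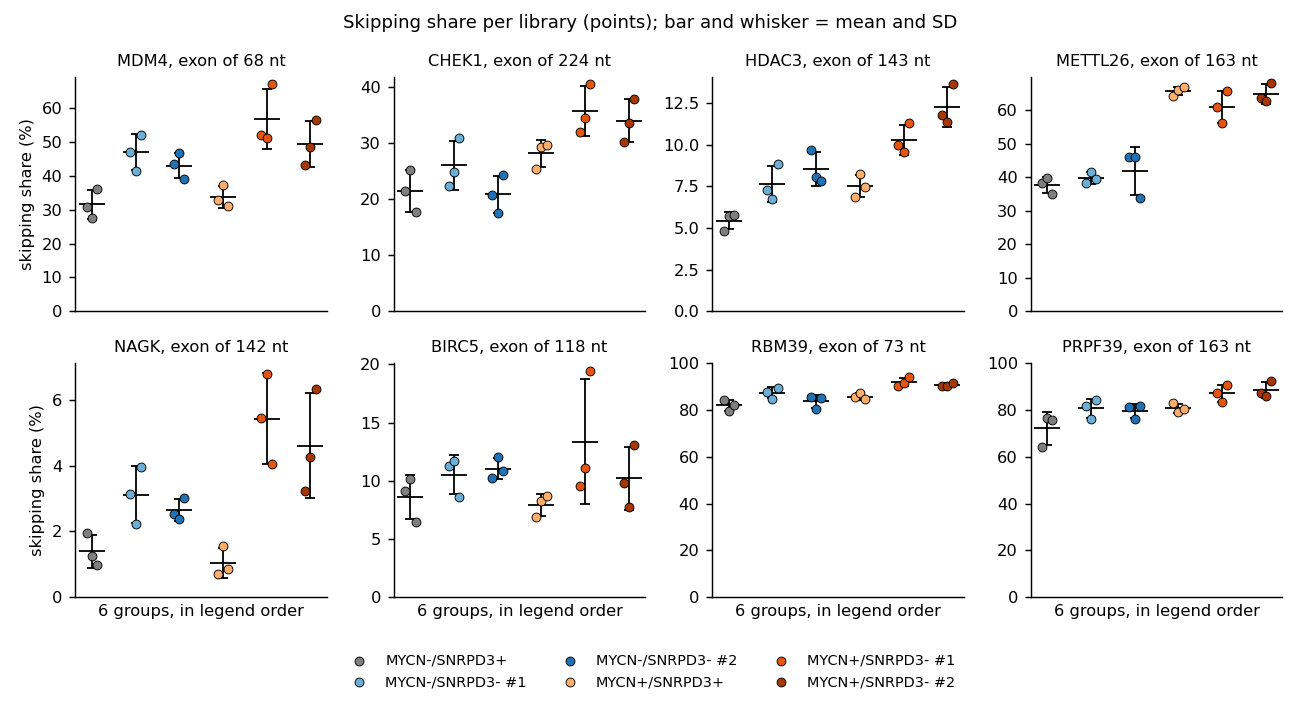
Skipping share (percent, y axes, separate scales from 0) of 8 exons in the 3 libraries of each group; points are libraries, bars and whiskers the mean and SD. MDM4 is higher in every knockdown library than in wildtype, METTL26 separates by MYCN and not by knockdown, and the BIRC5 libraries overlap between groups.

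Each list of genes was read against the 5.71% of all trios called for both changes, with no test of the list. Of 33 tested trios of known switches (15 genes), 4 were called, all higher (12.1%), in MDM4, CHEK1, MDM2 and PTBP1. The median difference over the list was 1.30 points, as over all frame-shifting trios. MDM2, the ubiquitin ligase of p53, rose by 6.00 points at its 134 nt exon 4, from 8.42%, 3.34% and 2.46% in wildtype to between 8.62% and 15.7% in MYCN+/SNRPD3- libraries (limma, adjusted p = 0.0477, and 0.156 without the third libraries). PTBP1, a repressor of neuronal exons, rose by 1.68 points at the 31 nt exon 2 printed above, from 0.850% to 1.35% in wildtype to 2.05% to 4.58% (limma, adjusted p = 0.0413, and 0.0981 without the third libraries). Both calls were near the threshold: MDM2 stayed called in 4 and PTBP1 in 5 of the 18 fits that left out 1 library.

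Splicing factors had 11 calls among 67 tested trios in 39 genes (16.4%, 10 higher, 1 lower), with a median difference of 0.76 points, below that of all trios. In several of them the skipped exon was a poison exon, so more skipping is a larger share of the form without the early stop. RBM39, a cofactor of splice site recognition, skipped the 73 nt exon printed above at 84.4%, 79.6% and 81.9% in wildtype and 85.5%, 87.1% and 84.4% with MYCN alone. The MYCN+/SNRPD3- libraries gave 90.2%, 91.6% and 93.9% (#1) and 90.0%, 90.3% and 91.5% (#2), the 6 highest values of all libraries. The rise was 9.31 points (log2 odds 1.13, SE 0.20, limma adjusted p = 0.0116), and the call was lost without wildtype replicate 2 (0.0558). A second RBM39 exon, of 155 nt, went the other way and fell by 7.59 points (limma, adjusted p = 0.029, and 0.0962 without the third libraries), from 88.3%, 91.2% and 91.0% in wildtype to between 79.1% and 87.3%.

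PRPF39, a factor linked to donor site recognition, had 2 called poison exons. The exon of 163 nt gave 64.1%, 76.4% and 75.9% in wildtype, 82.8%, 79.1% and 80.2% with MYCN alone and 83.5% to 92.5% in the MYCN+/SNRPD3- libraries (15.7 points, limma adjusted p = 0.0167, and 0.0528 without the third libraries). The exon of 100 nt gave 62.3%, 53.2% and 60.1% in wildtype and 70.0% to 91.2% in MYCN+/SNRPD3- libraries (22.4 points, limma adjusted p = 0.0349, and 0.0914 without the third libraries). The call of the 163 nt exon was also lost without wildtype replicate 1, and that of the 100 nt exon in 6 of the 18 fits that left out 1 library, any wildtype library included. In LUC7L3 the poison exon rose by 2.70 points from a wildtype mean of 93.9% ± 0.65 (SD, n = 3, limma adjusted p = 0.0314, and 0.0787 without the third libraries), and in SF3B1 by 1.49 points from 97.7% ± 0.84 (limma, adjusted p = 0.0476, and 0.158 without the third libraries). SF3B1 stayed called in only 2 of the 18 fits that left out 1 library. The RNA-binding protein RBM5 rose by 12.8 points at a coding exon of 61 nt (limma, adjusted p = 0.0222, and 0.0617 without the third libraries), and RBMS2 by 3.73 points at a coding exon of 59 nt (limma, adjusted p = 0.0365, and 0.117 without the third libraries). LUC7L rose by 3.96 points at a 64 nt exon (limma, adjusted p = 0.00982) and by 10.9 points at a 70 nt exon (0.0327, and 0.0881 without the third libraries). The canonical transcript skips both. The 64 nt exon lies in the 5′ UTR of another transcript. Added to the canonical one, it would bring an early stop and shorten the protein from 371 to 116 amino acids. RBMXL1 rose by 13.8 points at a 100 nt exon of the 5′ UTR (limma, adjusted p = 0.046, and 0.153 without the third libraries), a call that held in 3 of the 18 fits that left out 1 library. The LUC7L exon of 64 nt stayed called whichever library was left out, and was lost with only the compared groups in the fit (0.0809).

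DNA repair genes were called in 8 of 179 tested trios (4.47%, 7 higher, 1 lower), below the background share. The symbol pattern for polymerases also takes in subunits of RNA polymerases, and 2 of the 8 calls, POLR3F and POLR2J3, are of that kind. FANCA, of the Fanconi anaemia core complex, skipped its 139 nt exon 37 at 4.99%, 6.81% and 6.91% in wildtype and 5.73% to 10.99% with MYCN alone. It was skipped at 20.5%, 15.1% and 17.9% (#1) and 10.4%, 13.6% and 17.2% (#2) in MYCN+/SNRPD3- libraries, all above wildtype (9.54 points, log2 odds 1.35, SE 0.25, limma adjusted p = 0.0129). The FANCA call was lost without the third libraries (0.0504) and without wildtype replicate 1 (0.057). FANCI rose at exon 32 by 4.44 points (limma, adjusted p = 0.0282, and 0.102 without the third libraries). POLB, the polymerase of base excision repair, rose by 15.7 points at its 58 nt exon 2 (limma, adjusted p = 0.0272, and 0.0977 without the third libraries), and PARPBP by 14.7 points at exon 10 (limma, adjusted p = 0.0231, and 0.0626 without the third libraries). POLR3F rose by 9.66 points (0.0287, and 0.086 without the third libraries) and POLR2J3 by 18.7 points (0.0412, and 0.141 without the third libraries), the latter called in 6 of the 18 fits that left out 1 library.

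An 88 nt exon of ATM, the kinase that signals double-strand breaks, had the least even values of these. The exon lies in the 5′ UTR of a transcript other than the canonical one. It was at 0.487%, 0.901% and 0.598% in wildtype and at 0.409%, 12.6% and 0.395% with MYCN alone. The MYCN+/SNRPD3- libraries gave 23.8%, 57.9% and 57.0% (#1) and 17.05%, 0.429% and 30.9% (#2), so that 5 of 6 were above every other library and 1 was as low as wildtype (limma, adjusted p = 0.0259; 0.0893 without the third libraries). PARP2 was the 1 repair gene that fell, by 1.70 points at exon 15, from 2.68%, 2.499% and 2.58% in wildtype to between 0.465% and 1.11% (limma, adjusted p = 0.026, and 0.0844 without the third libraries).

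Cell cycle and mitosis genes had 7 calls among 133 tested trios (5.26%, 6 higher, 1 lower), close to the background, and a median difference of 1.55 points. AURKA, a mitotic kinase, had 2 called exons in its 5′ UTR. The 98 nt exon gave 27.3%, 35.4% and 31.4% in wildtype, 38.3% to 43.7% in the MYCN-/SNRPD3- and 38.7% to 54.0% in the MYCN+/SNRPD3- libraries (13.3 points, limma adjusted p = 0.0289, and 0.0879 without the third libraries), and the 110 nt exon rose by 12.96 points (limma, adjusted p = 0.0407, and 0.117 without the third libraries, called in 5 of the 18 fits that left out 1 library). The wildtype libraries of the 98 nt exon lay below every knockdown library. CCND3, a cyclin of the early cell cycle, rose by 7.99 points at exon 4 (limma, adjusted p = 0.0304, and 0.101 without the third libraries). CCNL1, a cyclin linked to splicing, rose by 13.2 points at a 73 nt exon (limma, adjusted p = 0.0397, and 0.115 without the third libraries). CDKN3 rose by 3.37 points (limma, adjusted p = 0.0326, and 0.0672 without the third libraries) and CCNB1IP1 by 3.60 points (limma, adjusted p = 0.0194). The CCNB1IP1 call was lost in limma without wildtype replicate 2 (adjusted p = 0.0819) or replicate 3 (0.0702). Skipping the coding CDKN3 exon brings an early stop, whereas the CCNB1IP1 exon is a poison exon whose skipping avoids one. A poison exon of CDK5RAP2, a centrosome protein, was skipped less, by 2.27 points (limma, adjusted p = 0.0322, and 0.0986 without the third libraries).

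Among chromatin genes 7 of 97 trios were called (7.22%, 6 higher, 1 lower), with a median difference of 1.31 points. Besides HDAC3, DNMT3B rose by 10.6 points at a 119 nt exon (limma, adjusted p = 0.0129). That call was lost in limma without wildtype replicate 2 (adjusted p = 0.0547) or replicate 3 (0.0571). The demethylases KDM4A and KDM6A rose by 4.40 points (limma, adjusted p = 0.0259, and 0.0804 without the third libraries) and 3.09 points (0.026, and 0.0631 without the third libraries). The KDM4A exon is a poison exon, so its rise is a larger share of the form without the early stop. SETD4 rose by 6.82 points (limma, adjusted p = 0.0322, and 0.101 without the third libraries) and SETD5 by 11.7 points (0.0466, and 0.0844 without the third libraries), the latter called in 4 of the 18 fits that left out 1 library. SETD9 fell by 26.3 points at a 70 nt exon, from 65.3%, 61.1% and 77.6% in wildtype to 42.4%, 54.3% and 45.6% (#1) and 36.7%, 31.8% and 39.6% (#2), with 43.9%, 55.8% and 49.0% under MYCN alone (limma, adjusted p = 0.0124). The SETD9 call was lost without wildtype replicate 3 (limma, adjusted p = 0.0544). The decay and translation list had 2 calls among 20 trios (10.0%), in the translation factors EIF4E2 (79 nt, 13.7 points, limma adjusted p = 0.0326, and 0.0947 without the third libraries) and EIF6 (176 nt, 7.02 points, limma adjusted p = 0.0406, and 0.132 without the third libraries). The EIF6 call held in 6 of the 18 fits that left out 1 library.

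Apoptosis genes had 1 call among 36 trios (2.78%). It was a 70 nt 5′ UTR exon of BID, which links death receptors to mitochondria, at 18.3%, 22.2% and 15.9% in wildtype and 35.4% to 57.4% in MYCN+/SNRPD3- libraries (27.9 points, limma adjusted p = 0.0189, and 0.056 without the third libraries). BIRC5, the survivin gene, was not called. Its exon 3 was skipped at 9.11%, 10.2% and 6.48% in wildtype and 6.89%, 8.22% and 8.69% with MYCN alone. The MYCN-/SNRPD3- libraries gave 11.3%, 11.7% and 8.57% (#1) and 10.3%, 12.1% and 10.8% (#2), and the MYCN+/SNRPD3- ones 9.52%, 11.1% and 19.5% (#1) and 9.80%, 7.73% and 13.1% (#2). The third library of MYCN+/SNRPD3- #1 was the highest and the groups overlapped. The difference for both changes was 3.19 points (log2 odds 0.43, SE 0.26, limma adjusted p = 0.361; 0.757 without the third libraries).

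CDK10 is a cyclin-dependent kinase that the study also singles out, for retention of intron 7, which a skipping share does not measure. It had 9 tested trios, of which none was called. With the replicate number as a block, 2 of them passed for both changes (limma, adjusted p = 0.0135 and 0.0403). The canonical 73 nt exon 2 gave 14.4%, 14.8% and 13.8% in wildtype, and 19.5%, 18.3% and 39.6% (#1) and 16.05%, 22.1% and 32.1% (#2) in MYCN+/SNRPD3- libraries (10.3 points, limma adjusted p = 0.181; 0.443 without the third libraries). The MYCN+/SNRPD3- libraries were all above wildtype, with the third libraries the highest. Its 227 nt exon, in 3 trios with different outer splice sites, had differences of -2.75 to -7.28 points (adjusted p from 0.147 to 0.573 by limma). Among other exons with both forms abundant that were not called were both versions of an HNRNPR exon (166 and 169 nt; -0.62 and -1.12 points), a PARP6 exon (4.42 points) and a 235 nt CDK5RAP2 exon (12.5 points, limma adjusted p = 0.0694).

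**Figure D4:**
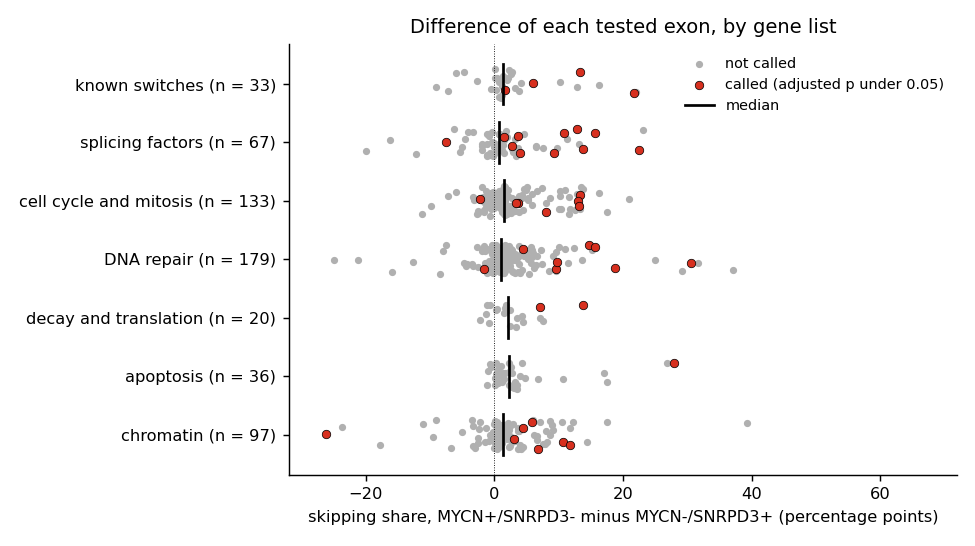
Difference in skipping share between MYCN+/SNRPD3- and wildtype (percentage points, x axis) for every tested frame-shifting trio of each gene list (y axis, number of trios in brackets); red points passed an adjusted p under 0.05, vertical bars are list medians. The medians lie between 0.76 and 2.19 points, and called exons lie on the higher side except RBM39, CDK5RAP2, PARP2 and SETD9.

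METTL26 was the 1 exon called for MYCN alone in the main analysis. Exon 2 of this methyltransferase-like gene was skipped at 38.3%, 39.7% and 35% in wildtype and at 64.3%, 65.9% and 66.8% with MYCN alone. The knockdown libraries without MYCN gave 38.1%, 41.7% and 39.6% (#1) and 45.9%, 46.1% and 33.6% (#2), and those with MYCN 60.8%, 56.2% and 65.7% (#1) and 63.5%, 62.6% and 68.1% (#2). All 9 libraries with MYCN were above all 9 without it. The difference for MYCN alone was 27.99 points (log2 odds 1.63, SE 0.23, limma adjusted p = 0.0354) and for both changes 25.2 points (log2 odds 1.46, SE 0.20, limma adjusted p = 0.00384). The call for both changes held whichever library was left out and was lost with only the compared groups in the fit (0.0517). The call for MYCN alone held in 6 of the 18 fits that left out 1 library. It was lost without any 1 wildtype or MYCN+/SNRPD3+ library and without 6 of the knockdown libraries. Its highest adjusted p in these fits was 0.179, without MYCN+/SNRPD3+ replicate 1. In limma it was 0.0563 without the third MYCN+/SNRPD3- libraries and 0.0915 with only the compared groups. In the latter fit both CPM trios described below were called for MYCN alone, with less skipping (limma, adjusted p = 0.0181 and 0.0233). The CLN6 exon differed by more for MYCN alone, at 40.5 points, and was not called (limma, adjusted p = 0.304).

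The 5 trios called for the knockdown with MYCN lay in IRF3, NAGK, POLR1D and, with 2 trios whose exons end at the same donor site, CPM. IRF3, a transcription factor of the interferon response, skipped its 116 nt exon at 0.0609%, 1.53% and 1.62% in MYCN+/SNRPD3+ libraries. It was skipped at 13.7%, 6.56% and 17.4% (#1) and 6.47%, 6.14% and 12.3% (#2) after knockdown (9.36 points, log2 odds 2.62, SE 0.39, limma adjusted p = 0.0395), while wildtype and MYCN-/SNRPD3- libraries stayed between 1.38% and 4.02%. NAGK, which phosphorylates N-acetylglucosamine, gave 0.693%, 1.57% and 0.847% with MYCN alone. After knockdown it gave 5.46%, 6.80% and 4.04% (#1) and 3.22%, 4.27% and 6.34% (#2) (3.99 points, log2 odds 1.61, SE 0.24, limma adjusted p = 0.0395). IRF3 and NAGK were also called for both changes (limma, adjusted p = 0.0139 and 0.011), and without the third libraries IRF3 had an adjusted p of 0.0528 and NAGK of 0.0263. Without wildtype replicate 3 both lost this call (limma, adjusted p = 0.0608 for IRF3 and 0.053 for NAGK).

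In POLR1D and CPM the MYCN+/SNRPD3+ libraries were near 0. POLR1D, a subunit of RNA polymerases, gave 0.0330%, 0.0382% and 0.0353% in these libraries and 0.996% to 3.04% in the other 15. For CPM, a membrane carboxypeptidase, the 98 nt exon gave 0.260%, 0.189% and 0.250% with MYCN alone, 11.2%, 14.8% and 8.28% in wildtype. The MYCN-/SNRPD3- libraries gave 6.602%, 6.602% and 8.49% (#1) and 10.0%, 5.05% and 0.0961% (#2), 1 of them also near 0, and the MYCN+/SNRPD3- ones gave 10.9%, 11.2% and 16.1% (#1) and 19.9%, 8.35% and 21.4% (#2). Whether any read supports the lowest values is unknown, because the files hold no counts. Neither gene was called for both changes (adjusted p = 0.987 for POLR1D and from 0.778 to 0.859 for CPM, limma). Each of these 5 calls held in 3 to 5 of the 18 fits that left out 1 library, and in none without the third MYCN+/SNRPD3- libraries.

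The number of calls for both changes moved with the libraries in the fit. It fell from 496 to 119, 101 and 97 without wildtype replicate 1, 2 and 3, to 274 and 221 without the third library of MYCN+/SNRPD3- #1 and #2, and to 101 (91 higher) without both of these, when 1.29% of all trios were called. With only the wildtype and MYCN+/SNRPD3- libraries in the fit, 17 trios were called. In each of these fits all 496 trios kept the direction of the main analysis, but they had been called on most of the same libraries. With only the compared groups the estimate is the same difference of group means, so its direction could not change. With only the compared groups, 1 of the 48 named calls held, SDR39U1. Of the 48 named calls for both changes, 6 held whichever of the 18 libraries was left out, in CD46, ANKRD10, SDR39U1, LUC7L, METTL26 and HDAC3, and 13 others were lost only without a wildtype library.

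**Figure D5:**
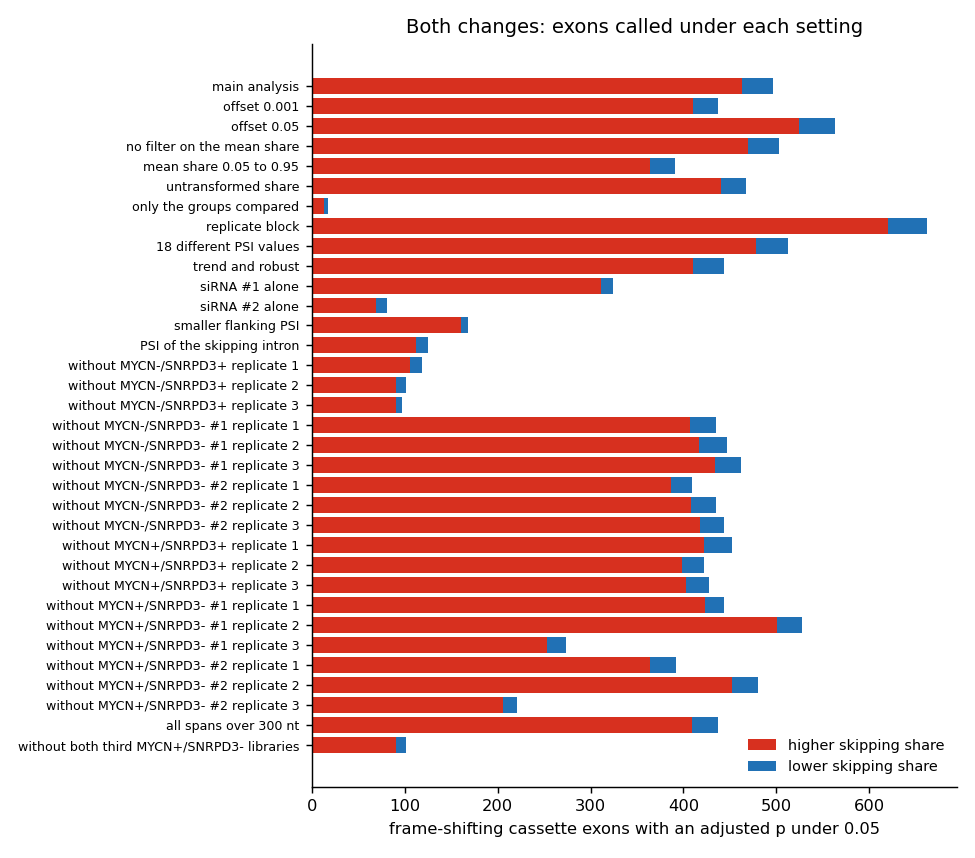
Number of frame-shifting trios called for both changes (x axis) in the main analysis and under each other setting (y axis); red counts those with a higher and blue those with a lower skipping share in MYCN+/SNRPD3- cells. The counts run from 17 to 662, and higher shares are the majority throughout.

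At the length limits of the set, the 115 tested trios with exons of 31 to 35 nt had a median difference of 1.03 points for both changes and 6 calls, and the 46 tested ones of 26 to 29 nt, outside the set, 0.36 points and 0 calls. The 17 trios with the longest exons inside the limits had a median difference of 4.32 points and 1 call, and the 8 tested ones just above them 1.44 points and 0 calls. These values are descriptions.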

How the data were processed

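RNA from 18 libraries of SHEP.tet21n cells, 6 groups of 3, was sequenced as stranded mRNA libraries. Alignment by the authors was to hg38 and used STAR 2.5.0a and SAMtools 1.3.1, per the submitters' processing notes, and introns were quantified with leafcutter and GENCODE 28. The deposited values are fractions (PSI, 0 to 1), the usage of each of 233650 introns within its cluster of introns that share splice sites, and are smoothed so that none is 0 or 1. No read counts were used here, so depth is unknown, no interval for counting error could be given, and usage says nothing of the amount of a transcript. A second deposited table holds the authors' own change in PSI and FDR for pairs of groups and was not used. Neither the MYCN nor the SNRPD3 introns were used here.

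Introns were matched to GENCODE 44 annotation of hg38, and sequences and reading frames came from the same genome. In 233 trios some intron had fewer than 18 different PSI values over the libraries, and 52 trios lie in more than 1 protein-coding gene. Trios of 1 gene can share introns and are not independent. The log2 odds, log2((share + 0.01)/(1 - share + 0.01)), were fitted with limma 3.58.1 in R 4.3.3 over 18694 trios with mean shares from 1% to 99% and all 6 groups (12 residual degrees of freedom), with Benjamini-Hochberg adjustment over all trios and a threshold of 0.05. Spans over 300 nt entered the fit only where 1 transcript holds them as an exon. The scripts were tested on simulated data. Groups came from the labels. The study describes the 3 libraries of a group as biological replicates made independently. The p-values set a difference of group means against the spread between such libraries, pooled over all 6 groups. Correlations of the log2 odds between libraries of a group were 0.905 to 0.936 across the tested frame-shifting trios, which are not independent replicates.

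Members and gene lists were chosen with earlier results of these data known. The named exons were the 5 called ones with the largest difference in each comparison, 1 per gene and without overlap between groups, all called ones where fewer than 5 were called, the called members of 7 gene lists, and up to 4 list members not called with shares nearest 50%. BIRC5 and CDK10 were added because the study names them. Alternatives covered the offset, the filter, the scale, the fit, the flanking introns, each siRNA and each library.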

Additional observations from a re-analysis of the deposited data

Results flagged for a closer look

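Both exons of CPM, the membrane carboxypeptidase, differed in direction between cells without and with MYCN: every knockdown library without MYCN lay below the wildtype mean, and every one with MYCN above the MYCN+/SNRPD3+ mean. For the 94 nt exon, the knockdown difference was -9.83 points without MYCN and 24.4 points with it, a gap of 34.3 points, and for the 98 nt exon it was -5.28 and 14.4 points, a gap of 19.7 points. The difference between the settings was tested as an interaction and did not pass in limma (adjusted p = 0.266 for both exons). The exons end at the same donor site and share their skipping intron, so they are not independent, and the MYCN+/SNRPD3+ libraries of both were near 0.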

How the results depend on the processing

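The direction of the 496 calls for both changes held in every one of them that a setting could fit, except that it held in 472 of 485 with the smaller flanking PSI and 409 of 414 with the PSI of the skipping intron alone. The settings reuse the libraries on which the trios were called, so a kept direction was largely fixed in advance. The count did not hold: it was 17 with only the groups compared, 324 with siRNA #1 alone, 81 with siRNA #2 alone, 168 with the smaller flanking PSI and 125 with the PSI of the skipping intron. It ran from 97 to 528 when 1 library was left out, lowest without a wildtype library (119, 101 and 97 without replicate 1, 2 and 3), and was 274 and 221 without the third library of MYCN+/SNRPD3- #1 and #2. Fits without the third MYCN+/SNRPD3- libraries, and with all spans over 300 nt, were chosen after seeing the data. Without the third libraries 101 were called for both changes, 97 of them among the 496, 0 for MYCN alone, 0 for the knockdown with MYCN and 2 for the averaged knockdown effect. The 1 call for MYCN alone became 4 with an offset of 0.001, 2 on the untransformed share and 17 with only the groups compared (0 to 3 leaving out 1 library). The 0 calls for the knockdown without MYCN became 2 with only the groups compared (0 to 1). The 5 calls for the knockdown with MYCN became 1 and 0 with offsets of 0.001 and 0.05, 0 with mean shares of 0.05 to 0.95, 2 on the untransformed share, 3 with only the groups compared, 0 with a trended and robust fit, 0 with either siRNA alone, 3 with the smaller flanking PSI and 0 with the skipping intron (0 to 10 leaving out 1 library). The 0 calls for the averaged effect became 7 and 3 with offsets of 0.001 and 0.05, 6 on the untransformed share, 1 with the smaller flanking PSI and 2 with the skipping intron (0 to 3). The interaction gave 1 call with an offset of 0.001 (0 to 2). The causes of these changes were not tested. The mean difference over the exons, 2.42 points, was 1.68 to 3.19 points in every setting tried.

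Correlations gave little sign that replicate numbers pair the libraries. Of 45 pairs with the same number in different groups, 1 had a correlation of deviations over 0.1. The mean was 0.0153, against -0.00761 in 90 pairs with different numbers. With the replicate block, however, calls rose from 496 to 662 for both changes (481 of the 496 among them). They rose from 5 to 26 for the knockdown with MYCN and from 0 to 51 for the averaged effect, and fell from 1 to 0 for MYCN alone. Whether the numbers pair the libraries therefore stayed undecided. Of the values of the 54 named calls under other settings, 1162 stayed called, 592 kept their direction and lost the call, and 0 reversed. These directions, too, were largely fixed by the shared libraries. Of the 48 for both changes, 12 held without the third MYCN+/SNRPD3- libraries, 1 with only the groups compared and 48 with the replicate block, under which 2 CDK10 trios were also called. Depth is unknown, which limits every share near 0% or 100%.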
